A study of Mus musculus with 16 samples.

Results

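The 7 genes described here, Rax, Lhx2, Vim, Nes, Gpr50, Frzb and Adm, were taken by symbol as genes known from tanycytes and matched to 7 of the 55401 Ensembl gene IDs of the expression tables, and 6 of them were among the 15808 genes tested. They were measured by RNA sequencing in the hypothalamus of male mice, 3 months old and of C57BL/6 background, that were wild type (WT) or lacked acid-sensing ion channel 1a in every cell (ASIC1a-/-). Both genotypes came from crosses of heterozygous mice and were kept on an alternating light and dark schedule with free access to food. The tissue was taken at Zeitgeber time (ZT) 1, shortly after lights on, or at ZT13, shortly after lights off, which gave 4 groups of 4 libraries: WT ZT1, ASIC1a-/- ZT1, WT ZT13 and ASIC1a-/- ZT13. The deletion was constitutive, and the labels name no treatment and no difference other than genotype and time between the groups. The whole hypothalamus was sequenced, so that RNA of tanycytes was not separated from that of other cells. Fewer tanycytes, less RNA per tanycyte and a difference in other cells that express a gene cannot be told apart.

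Tanycytes are elongated glial cells that line the floor and lower walls of the third ventricle, with a body in contact with the cerebrospinal fluid and a process that reaches into the arcuate nucleus or the median eminence. They keep features of radial glia, carry thyroid hormone from blood and ventricle and convert it to its active form, and are known for seasonal and nutritional regulation of the hypothalamus. Rax and Lhx2 are homeodomain transcription factors that specify them, Vim and Nes encode intermediate filaments of their processes, Gpr50 encodes an orphan receptor related to the melatonin receptors, Frzb a secreted Wnt antagonist and Adm the vasodilator peptide adrenomedullin.

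The libraries held 34888522 to 42326259 expected counts each. As a check of the genotype labels, Asic1 reached 64.8 to 71.8 counts normalised to library size (CPM) in the 8 ASIC1a-/- libraries and 97.0 to 106 CPM in the 8 WT libraries. The remaining reads were assigned to a shorter average transcript, of 1814 against 3213 bases at ZT1, and in TPM, which scale for transcript length, the order was reversed, with 72.8 to 84.0 TPM in the ASIC1a-/- and 60.8 to 71.1 TPM in the WT libraries. The 2 genotypes did not overlap on either scale. The 10 meningeal markers summed to 402 CPM in ASIC1a-/- ZT1 replicate 4 and to 197 CPM in ASIC1a-/- ZT13 replicate 2, against group medians of 50.1 to 93.8 CPM. The endothelial and mural sums were also highest, within their groups, in those 2 libraries. Calls for the tanycyte genes that rest on them, and list counts that change without them, are given both ways. The 12 ependymal markers, of the ciliated cells that border tanycytes in the ventricle wall, summed to 65.3 to 81.4 CPM over all libraries.

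Per transcript length, Vim was the most abundant of the genes, with a median level over the 16 libraries of 61.3 TPM (range 50.3 to 89.8). Gpr50 followed at 16.2 TPM (12.2 to 19.0), then Frzb at 7.79 TPM (6.15 to 9.54), Lhx2 at 5.04 TPM (3.82 to 6.40), Nes at 2.35 TPM (1.87 to 3.05), Rax at 2.01 TPM (0.79 to 3.22) and Adm at 0.98 TPM (0.71 to 1.51). Vim exceeded Gpr50, Gpr50 exceeded Frzb, and Lhx2 exceeded Nes in 16 of 16 libraries. Frzb exceeded Lhx2 in 15 and Rax exceeded Adm in 14 of 16 libraries, whereas Nes was above Rax in only 11. The order of Nes and Rax depended on the time. Nes was above Rax in every ZT1 library, with means of 2.36 against 1.37 TPM in WT and 2.46 against 1.5 TPM in ASIC1a-/-. At ZT13 the order was mixed, with means of 2.34 against 2.26 TPM in WT and 2.29 against 2.46 TPM in ASIC1a-/-. The posterior SD of the count, which is above 0 where reads cannot be assigned to 1 gene, was 0 for all 7 genes in every library. The antisense genes annotated across Rax, Lhx2 and Adm held 0 to 4 counts per library, and since the strand setting of the counting is not stated, reads of the 2 strands were not separated here.

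The genes lie on 5 chromosomes of the mouse genome build GRCm38. Vim, at chr2:13573927-13582826, Lhx2, at chr2:38339281-38369733, and Frzb, at chr2:80411970-80447625, share a chromosome. Nes is at chr3:87971078-87980451, Adm at chr7:110627661-110629820 and Gpr50 at chrX:71663667-71669257. Because levels of 2 of the genes differed between the times of day, the windows from 250 bases before to 50 bases after the transcription start (RefSeq, GRCm38.p6) were searched on both strands for letters of clock-related elements. For 6 of the genes, 7 such windows were matched, 2 of them for Lhx2. No window was matched for Rax, so its promoter was not analysed here. The E-box CACGTG, present in 7.15% of 32851 windows, the ROR and REV-ERB element TAGGTCA, in 2.61%, the D-box TTATGNAA, in 3.38%, and the cAMP response element TGACGTCA, in 1.79%, were in none of the 7. The shorter ACGTG, which is also part of the E-box and occurs in 19.6% of the windows, was in 1 window of Lhx2. The TATA box TATAAA, in 13.6% of the windows, was in that of Vim. The 250 bases upstream of Gpr50, whose level fell at ZT13, and of Vim, the most abundant one, are shown 5′ to 3′, from chrX:71663417-71663666 and chr2:13574061-13574310, both on the plus strand, with the TATA box in capitals.
Gpr50: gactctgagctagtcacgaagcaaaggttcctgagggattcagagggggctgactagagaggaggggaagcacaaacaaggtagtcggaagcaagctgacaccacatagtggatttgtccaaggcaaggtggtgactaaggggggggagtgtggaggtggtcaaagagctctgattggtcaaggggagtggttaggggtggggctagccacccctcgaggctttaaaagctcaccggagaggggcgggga
Vim: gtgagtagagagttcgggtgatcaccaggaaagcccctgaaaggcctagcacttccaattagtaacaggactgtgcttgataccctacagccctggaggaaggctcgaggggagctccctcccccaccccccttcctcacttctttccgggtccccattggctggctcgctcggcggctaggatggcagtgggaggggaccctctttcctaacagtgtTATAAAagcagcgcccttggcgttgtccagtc

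The first question was whether tanycyte genes differed between the beginning of the light and of the dark phase. With the genotypes averaged, Rax was higher at ZT13 and Gpr50 slightly lower, neither was called within a single genotype, and the other 4 tested genes did not pass the test. With edgeR's quasi-likelihood test and Benjamini-Hochberg adjustment, 2 of the 6 tested genes were called, 1 in each direction, at an adjusted p under 0.05. Over all tested genes, 26.4% were called in the same comparison, so the share among the tanycyte genes is not a result about the set. The account below therefore concerns single genes.

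**Figure D1:**
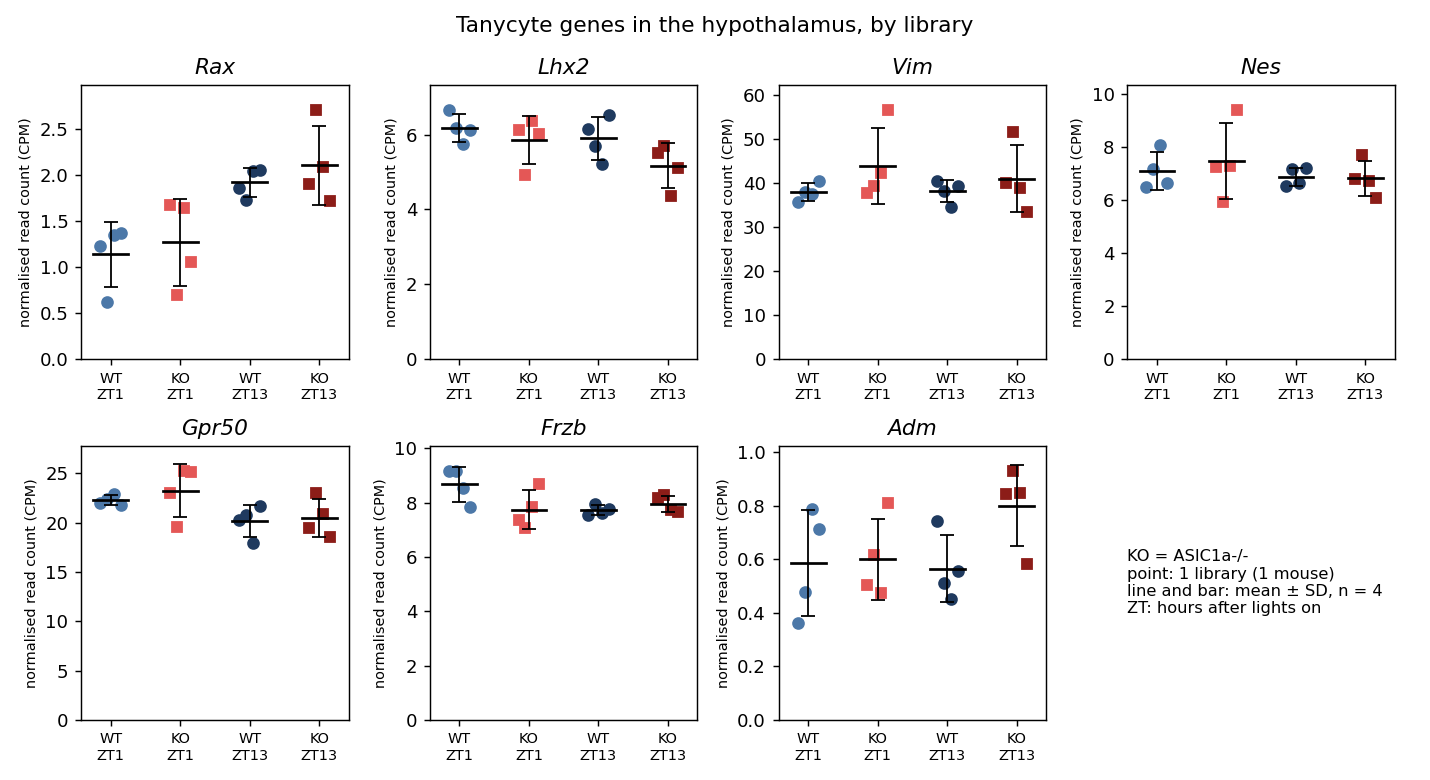
Normalised read counts (CPM, vertical axes starting at 0) of the 7 genes in the 16 libraries, by genotype and time. Points are single libraries (mice), horizontal lines and bars are the mean ± SD of 4. All 8 ZT13 libraries lie above all 8 ZT1 libraries for Rax only.

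Rax, which is required for tanycyte differentiation and lies at chr18:65928277-65939787 on the minus strand, had expected counts of 44, 22, 48 and 48 in the WT ZT1 libraries (replicates 1 to 4) and of 60, 25, 59 and 38 in the ASIC1a-/- ZT1 libraries. At ZT13 the counts were 65, 61, 72 and 74 in WT and 70, 96, 89 and 62 in ASIC1a-/-. After normalisation, the mean ± SD (n = 4) was 1.14 ± 0.354 CPM in WT ZT1, 1.27 ± 0.473 CPM in ASIC1a-/- ZT1, 1.92 ± 0.155 CPM in WT ZT13 and 2.11 ± 0.430 CPM in ASIC1a-/- ZT13. The highest ZT1 library, with 1.68 CPM, was below the lowest ZT13 library, with 1.72 CPM, so the times did not overlap in all 8 against all 8 libraries, which was the case for 5.95% of all tested genes. Within WT, where 18.3% of all tested genes separated the times without overlap, 2 of the 6 genes did so, Rax upwards and Gpr50 downwards. Within ASIC1a-/-, where 15.7% did, 1 of the 6 did so, and it was Rax.

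The log2 fold change of Rax, ZT13 over ZT1 and averaged over the genotypes, was 0.74 (SE 0.179, adjusted p = 0.00519), a fold of 1.67 with a 95% interval of 1.29 to 2.17. Among the 15808 tested genes, 119, Rax included, had an absolute log2 fold change at least as large in this comparison. Within single genotypes the estimates were of similar size, 0.75 in WT (SE 0.256, adjusted p = 0.0605) and 0.73 in ASIC1a-/- (SE 0.250, adjusted p = 0.0693), and neither was called. The interaction of genotype and time was -0.02 for Rax, with a 95% interval of -0.77 to 0.73. Counting error alone was 11.2% to 15.7% of the mean in a group, against a spread between libraries of 31.0% and 37.3% at ZT1 and of 8.1% and 20.4% at ZT13. WT ZT1 replicate 2 and ASIC1a-/- ZT1 replicate 2 were lowest, at 0.618 and 0.699 CPM, and the log2 fold change without both, which were picked for their Rax level after the data were seen, was 0.54 (adjusted p = 0.00924). Without the 2 libraries high in meningeal markers it was 0.63 (adjusted p = 0.0213).

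Gpr50, at 632 to 910 counts per library, was measured more closely. The WT ZT1 libraries had 22.0, 22.4, 22.9 and 21.8 CPM and the WT ZT13 libraries 20.3, 20.8, 17.9 and 21.7 CPM, so that every WT library at ZT13 was below every one at ZT1, the nearest being 21.7 and 21.8 CPM. The ASIC1a-/- libraries had 23.0, 19.6, 25.3 and 25.1 CPM at ZT1 and 19.4, 23.0, 20.9 and 18.6 CPM at ZT13, and these overlapped. The mean log2 fold change over both genotypes was -0.16 (SE 0.0545, adjusted p = 0.0345), a fold of 0.893 with a 95% interval of 0.825 to 0.967. It was -0.14 in WT (adjusted p = 0.247) and -0.18 in ASIC1a-/- (adjusted p = 0.138), and the interaction was -0.04 (95% interval -0.27 to 0.19). The call was narrow, since it was lost in 10 of 26 alternatives, among them both TPM scales and 7 of the 16 fits that left out 1 library, with adjusted p between 0.00462 and 0.0968 over all of them. Mtnr1a and Mtnr1b, the melatonin receptors to which Gpr50 is related, were measured at 10 to 21 and 0 to 1 counts per library and were not tested.

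**Figure D2:**
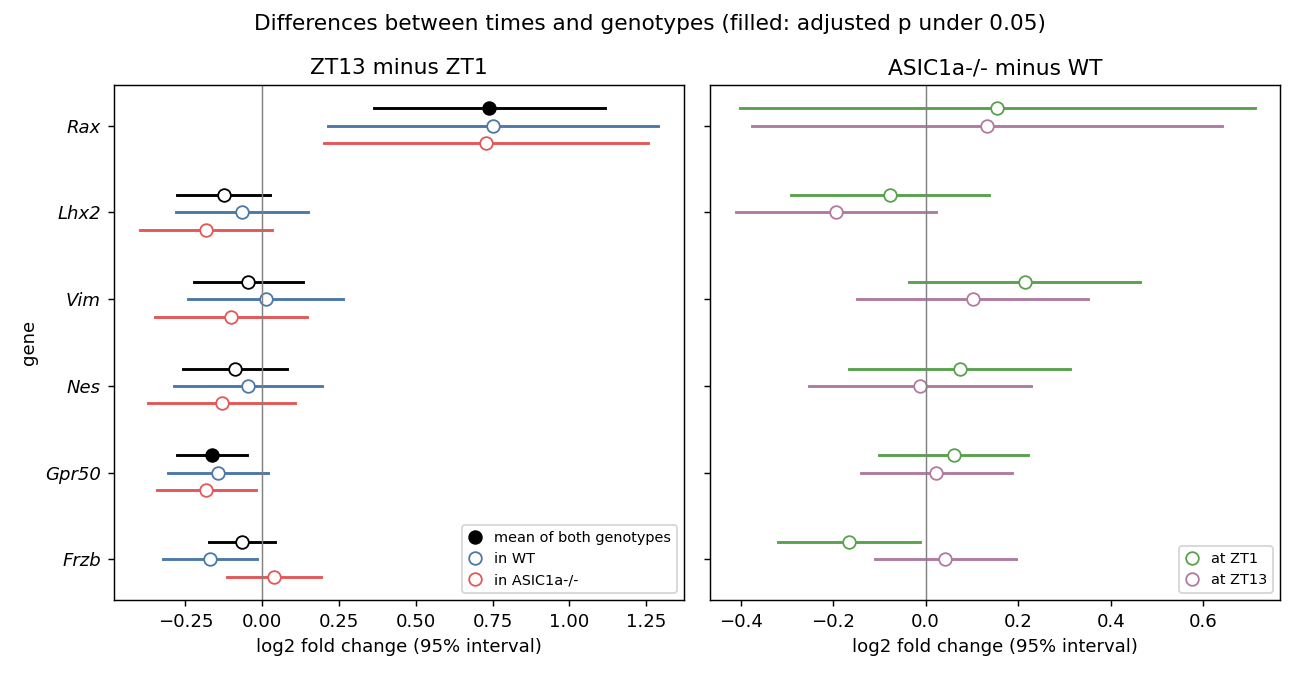
Log2 fold changes with 95% intervals of the 6 tested genes, ZT13 minus ZT1 on the left and ASIC1a-/- minus WT on the right. Filled points passed an adjusted p of 0.05 (Rax and Gpr50 in the mean of both genotypes), open points did not.

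Lhx2, the second homeodomain factor, was at 6.67, 6.18, 5.76 and 6.12 CPM in WT ZT1 and at 6.17, 5.71, 5.21 and 6.53 CPM in WT ZT13. In ASIC1a-/- it was at 6.12, 4.92, 6.36 and 6.02 CPM at ZT1 and at 5.52, 5.70, 4.35 and 5.10 CPM at ZT13. The groups overlapped in every comparison, and the log2 fold change between the times was -0.12 (95% interval -0.28 to 0.03, adjusted p = 0.22). Its highest level was in a WT ZT1 library and its lowest in an ASIC1a-/- ZT13 library.

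Frzb, which binds Wnt ligands outside the cell, was at 9.18, 9.18, 8.54 and 7.83 CPM in WT ZT1, the group with its highest mean, 8.68 ± 0.643 CPM. The WT ZT13 libraries had 7.54, 7.95, 7.62 and 7.78 CPM and a log2 fold change of -0.17 against WT ZT1 (95% interval -0.32 to -0.02, adjusted p = 0.137). The ASIC1a-/- libraries had 7.35, 7.08, 7.84 and 8.70 CPM at ZT1 and 8.16, 8.27, 7.74 and 7.65 CPM at ZT13. Frzb thus was lower than in WT ZT1 in the means of all 3 other groups, with overlap against each, and the 2 differences tested, to WT ZT13 and to ASIC1a-/- ZT1, did not pass the adjustment. Its interaction of genotype and time was 0.21 (95% interval -0.01 to 0.42, adjusted p = 1.0). For the interaction, 0.019% of all tested genes were called by edgeR, and 0 of the 6 by edgeR, DESeq2 or limma-voom. No member had an unadjusted p under 0.05, beside 618 of all 15808 tested genes.

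Vim encodes vimentin, which is also a filament of vascular, meningeal and immature glial cells. Its levels were 35.6, 38.0, 37.4 and 40.5 CPM in WT ZT1 and 40.5, 38.2, 34.5 and 39.4 CPM in WT ZT13. The ASIC1a-/- libraries had 37.6, 39.3, 42.2 and 56.6 CPM at ZT1 and 40.0, 51.6, 38.9 and 33.5 CPM at ZT13. The 2 libraries high in meningeal markers had the highest Vim of all 16. Between the times the log2 fold change was -0.04 (95% interval -0.22 to 0.13, adjusted p = 0.739).

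Nes, which encodes nestin, a filament of neural progenitors and of some vessels, was at 6.50, 7.16, 8.06 and 6.64 CPM in WT ZT1 and at 6.51, 7.15, 6.63 and 7.19 CPM in WT ZT13. In ASIC1a-/- it was at 7.24, 5.93, 7.28 and 9.40 CPM at ZT1 and at 6.78, 7.70, 6.70 and 6.07 CPM at ZT13. The highest Nes level, as of Vim, was in ASIC1a-/- ZT1 replicate 4, and the groups overlapped. The log2 fold change between the times was -0.09 (95% interval -0.26 to 0.08, adjusted p = 0.457).

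Adm stayed below the filter of 1 CPM in every library, with 13, 17, 28 and 25 counts in WT ZT1, 18, 22, 17 and 29 in ASIC1a-/- ZT1, 26, 18, 16 and 20 in WT ZT13 and 31, 33, 36 and 21 in ASIC1a-/- ZT13. The ASIC1a-/- ZT13 group had the highest mean, 0.801 ± 0.152 CPM, against 0.565 ± 0.125 CPM in WT ZT13, and the groups overlapped. In a fit without the filter, the log2 fold change between these 2 groups was 0.50 (95% interval -0.05 to 1.05, adjusted p = 0.949), and between the times, over both genotypes, it was 0.19 (95% interval -0.21 to 0.58, adjusted p = 0.688). At these counts, counting error alone was 18.2% to 22.4% of the mean in a group.

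Within single genotypes, 0 of the 6 genes passed edgeR's test for time of day, where 13.3% of all tested genes were called in WT and 11.3% in ASIC1a-/-. At an unadjusted p under 0.05 there were 2 of the 6 in WT, Rax and Frzb, beside 4282 of all 15808 tested genes. In ASIC1a-/- there were 2, Rax and Gpr50, beside 4156 of 15808, so neither count is a result about the set. DESeq2 and limma-voom each called 1 gene, Rax, in each genotype. The share of all tested genes that these tools called is not given here, so this concerns Rax alone.

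The second question was whether the deletion of ASIC1a altered these genes. At ZT1, 0 of the 6 genes were called by edgeR, DESeq2 or limma-voom, where 0.0127% of all tested genes were called by edgeR. At an unadjusted p under 0.05 there was 1 gene, Frzb, beside 1107 of all 15808 tested genes. The log2 fold change of Frzb, ASIC1a-/- over WT, was -0.17 (95% interval -0.32 to -0.01, adjusted p = 0.68). At ZT13, 0 of the 6 were called by any of these tools, where 0.101% of all genes were. None had an unadjusted p under 0.05, beside 591 of 15808. The same held for the mean of both times, where 0.0633% of all genes were called and 1074 of 15808 had an unadjusted p under 0.05. These comparisons use the same 4 groups as those of time and are not independent of them.

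The intervals show what the comparison of genotypes could have missed. For Gpr50 the 95% interval of the log2 fold change was -0.10 to 0.22 at ZT1 and -0.14 to 0.19 at ZT13, and for Lhx2 it was -0.29 to 0.14 and -0.41 to 0.02. For Rax it was wider, -0.40 to 0.71 at ZT1 and -0.38 to 0.64 at ZT13. For Nes it was -0.17 to 0.31 and -0.25 to 0.23. A p that misses the threshold does not show that the genotypes were alike, and for Rax the upper bounds corresponded to folds of 1.64 at ZT1 and 1.56 at ZT13.

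Vim differed between genotypes by 0.21 at ZT1 (95% interval -0.04 to 0.46, adjusted p = 0.733) and 0.10 at ZT13 (95% interval -0.15 to 0.35, adjusted p = 1.0). Without the 2 libraries high in meningeal markers these values were 0.07 (adjusted p = 0.929) and -0.03 (adjusted p = 0.999). The 10 meningeal markers, all above 0 counts in each group, were higher in the fitted means of ASIC1a-/- in 10 of 10 genes at both times, with median log2 fold changes of 1.44 and 0.52, beside 0.000116 and 4.81e-05 over all tested genes. None of the 10 was called by edgeR, DESeq2 or limma-voom. At an unadjusted p under 0.05 there were 9 at ZT1 and 0 at ZT13, beside 1107 and 591 of all 15808 tested genes. Without the 2 high libraries the median was 0.44 at ZT1, with 10 of 10 genes still higher, and -0.34 at ZT13, with 1 gene higher and 9 lower, so the direction at ZT13 rests on ASIC1a-/- ZT13 replicate 2.

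The third question was which of the genes varied together from mouse to mouse, within the groups. Rax varied most and had no relation to the other genes that passed, Gpr50 and Nes were high and low in the same libraries, and Vim followed vascular and meningeal markers without passing the adjusted threshold. These relations were computed on log2 CPM after subtraction of the group means, over 16 libraries, with permutations within groups. Gpr50 and Nes had a Pearson's r of 0.765 (permutation p = 0.00242, adjusted p = 0.0363 over 15 pairs) and a Spearman's rho of 0.776 (permutation p = 0.00115, adjusted p = 0.0172), and r was 0.697 without the 2 libraries farthest in Gpr50. Within the single groups of 4 their r was 0.95 in WT ZT1, 0.82 in ASIC1a-/- ZT1, 0.67 in WT ZT13 and 0.93 in ASIC1a-/- ZT13. This was the 1 pair of 15 that passed, and it did so in 8 of 22 alternatives, with r from 0.447 on the TPM scale to 0.826.

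**Figure D3:**
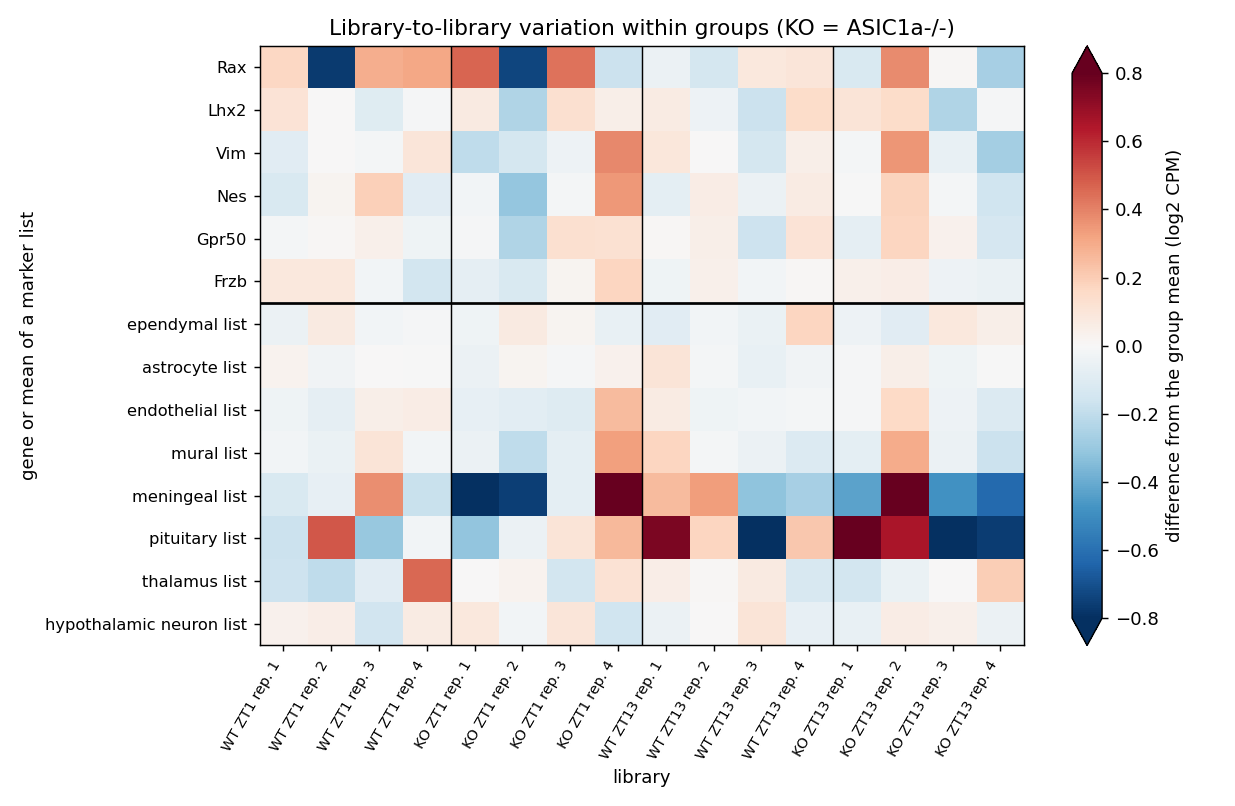
Difference of each library from its group mean in log2 CPM (colour, cut at ±0.8) for the 6 tested genes, above the line, and for the mean of 8 marker lists, below it. Vim and Nes are raised in the 2 libraries with the strongest meningeal signal, and Rax is lowest in replicate 2 of both ZT1 groups.

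Vim and Nes had an r of 0.733 (permutation p = 0.0162, adjusted p = 0.12, rho 0.624 with permutation p = 0.0217 and adjusted p = 0.139), which was 0.424 without the 2 libraries farthest in Vim. Those 2 were the libraries high in meningeal markers, so the relation rests largely on them. Nes and Frzb had an r of 0.684 (permutation p = 0.0397, adjusted p = 0.12, rho 0.612 with permutation p = 0.0422 and adjusted p = 0.158), and 0.339 without the 2 farthest libraries in Nes. Gpr50 and Vim had an r of 0.683 (permutation p = 0.0357, adjusted p = 0.12, rho 0.626 with permutation p = 0.0278 and adjusted p = 0.139), and 0.698 without the 2 farthest in Gpr50. The 5 pairs with Rax had r between -0.084 and 0.479 and adjusted permutation p between 0.173 and 0.819.

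**Figure D4:**
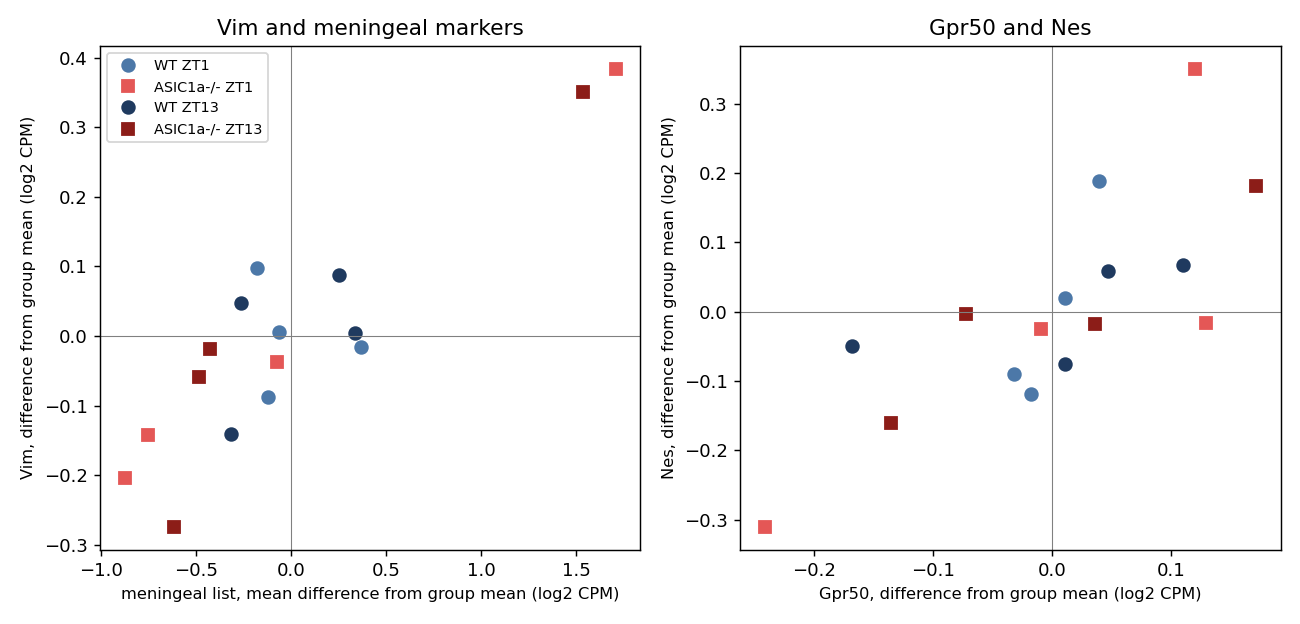
Differences from the group mean in log2 CPM, Vim against the mean of 10 meningeal markers (left) and Nes against Gpr50 (right), 1 point per library, coloured by group. The 2 points at the upper right of the left panel are ASIC1a-/- ZT1 replicate 4 and ASIC1a-/- ZT13 replicate 2.

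Against the mean levels of 8 marker lists, 0 of 48 relations passed an adjusted permutation p of 0.05. Vim had the highest, with the meningeal list (r = 0.906, permutation p = 0.00345, adjusted p = 0.0766, rho 0.788 with permutation p = 0.00487 and adjusted p = 0.0787, and r 0.682 without the 2 farthest libraries). With the endothelial list it was 0.892 (permutation p = 0.00354, adjusted p = 0.0766, rho 0.779 with permutation p = 0.00641 and adjusted p = 0.0787, and r 0.685 without the 2 farthest). Nes followed the meningeal list at 0.799 (permutation p = 0.00479, adjusted p = 0.0766, rho 0.676 with permutation p = 0.00656 and adjusted p = 0.0787, and r 0.657 without the 2 farthest). Their part in the levels of Vim and Nes was not tested. With the ependymal list all 6 genes had a negative r, between -0.355 and -0.089.

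The genes whose pattern within groups was nearest to each, by Pearson's r over the 16 centred libraries and among tested genes with a mean of at least 5 CPM, are given as a measure of likeness without a test. Rax was most like Fgfr3 (r = 0.901), Hr (0.89) and Zfp768 (0.874). Gpr50 was most like Tbx3 (0.944), Cd2ap (0.937) and Asap3 (0.936). Vim was most like Slc7a2 (0.963), Lama2 (0.944) and Anxa3 (0.941), and Nes most like Ephx1 (0.943), Lamb2 (0.935) and Fat4 (0.925). For Frzb the nearest were Kctd12 (0.899), Susd6 (0.895) and Rarg (0.882), and for Lhx2 Syt6 (0.865), Cited1 (0.822) and Slc25a30 (0.791). All of these values share the same libraries and their depth.

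Beyond the 7 genes, 20 other genes known from tanycytes, though not all from tanycytes alone, were all tested. For time of day, with the genotypes averaged, 3 rose at ZT13, 1 fell and 16 did not pass, a share of calls not above the 26.4% over all tested genes, with a median log2 fold change of 0.02 beside -0.00492 over all genes tested. Dio2, the deiodinase that converts thyroxine to the active hormone, rose by 0.57 (SE 0.0665, adjusted p = 7.81e-06), from 12.3 and 13.0 CPM in WT and ASIC1a-/- at ZT1 to 18.1 and 19.6 CPM at ZT13. The paper measured Dio2 by RT-qPCR in the mediobasal hypothalamus, not in the whole hypothalamus. There it reported a tendency the other way in WT, which was not significant, and low levels at both times in ASIC1a-/-. Rgcc, a regulator of the cell cycle, rose by 0.36 (adjusted p = 0.00573) and Vcan, the matrix proteoglycan versican, by 0.22 (adjusted p = 0.000203). Slco1c1, a thyroxine transporter of tanycytes, astrocytes and brain endothelium, had a log2 fold change of -0.11 (adjusted p = 0.00511). Dio2, Rgcc and Vcan were called in 26 of 26 alternatives and Slco1c1 in 24. Fgf10, a growth factor of tanycytes of the median eminence, had -0.20 (adjusted p = 0.0537), and Trhde, which degrades thyrotropin-releasing hormone, -0.11 (adjusted p = 0.106).

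**Figure D5:**
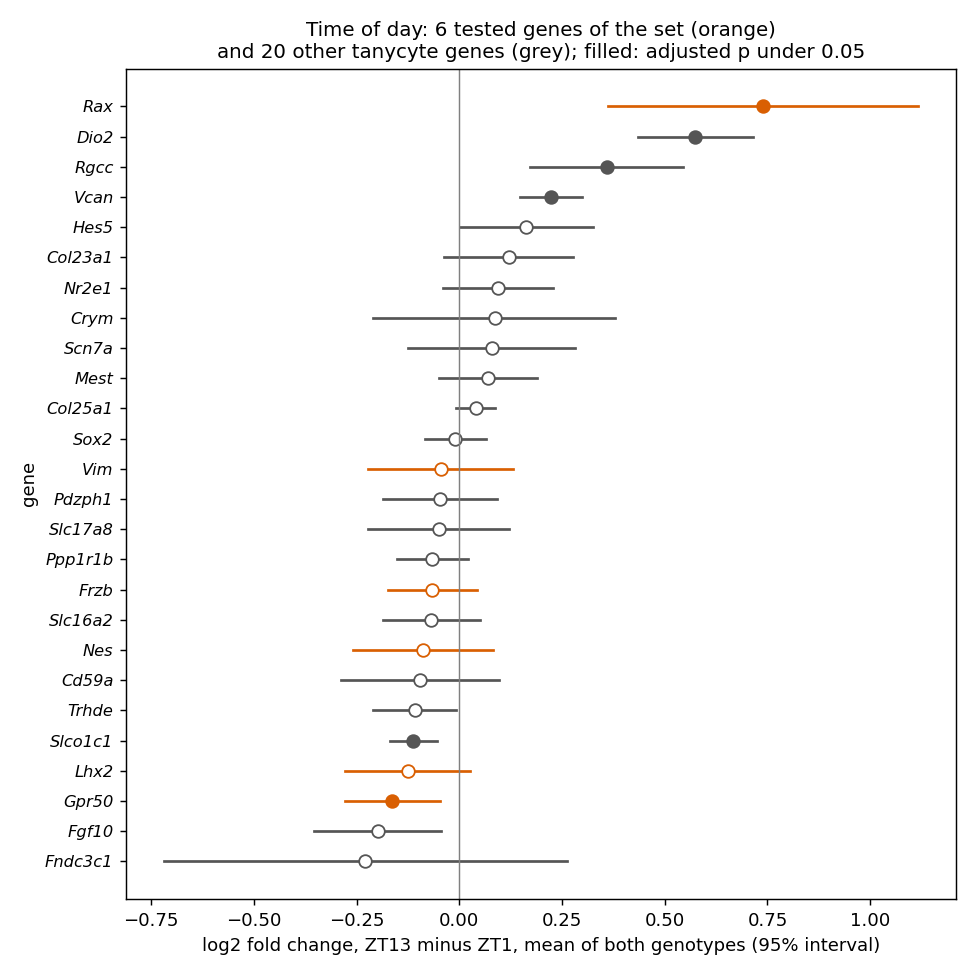
Log2 fold change, ZT13 minus ZT1 with the genotypes averaged, and 95% interval, for the 6 tested genes (orange) and 20 other tanycyte genes (grey), ordered by value. Filled points passed an adjusted p of 0.05: Rax, Dio2, Rgcc and Vcan higher, Slco1c1 and Gpr50 lower.

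In WT alone, where 13.3% of all tested genes were called, 4 of the 20 rose and 1 fell, and in ASIC1a-/- alone, where 11.3% were called, 2 rose and 0 fell (3 were called without the 2 libraries high in meningeal markers). Hes5, a Notch target, rose by 0.38 in WT (adjusted p = 0.0285) and had -0.05 in ASIC1a-/- (adjusted p = 0.816), with an interaction of -0.42 (adjusted p = 1.0), so that no difference between the genotypes passed the test. Its levels were 11.3, 11.2, 9.68 and 10.8 CPM in WT ZT13 and 7.65, 10.9, 7.01 and 7.06 CPM in ASIC1a-/- ZT13, where replicate 2, one of the libraries high in meningeal markers, lay within the WT range and the other 3 below it. Without the 2 libraries high in meningeal markers, the difference between the genotypes at ZT13 was -0.57 (adjusted p = 0.000422) and the interaction -0.63 (adjusted p = 0.0162), and both were also called without ASIC1a-/- ZT13 replicate 2 alone. That library thus decided the call for Hes5.

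Between genotypes, 0 of the 20 were called by edgeR, DESeq2 or limma-voom at either time with all libraries. At an unadjusted p under 0.05 there were 0 at ZT1 and 4 at ZT13, beside 1107 and 591 of all 15808 tested genes. The values nearest to a call were both at ZT13, Slco1c1 at 0.15 (adjusted p = 0.469) and Hes5 at -0.40 (adjusted p = 0.541).

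Lists related to single members gave the following counts for time of day, with the genotypes averaged, where 26.4% of all tested genes were called. With so few genes in each list, these counts describe the named genes and say nothing particular about a list. Of 12 tested genes of thyroid hormone handling, a list that shares Dio2 and Slco1c1 with the one above, 1 rose and 2 fell, the latter Slco1c1 and the receptor Thra, at -0.05 (adjusted p = 0.0335). Of 10 Wnt antagonists and feedback genes related to Frzb, 4 rose and 1 fell. Sfrp5, a secreted relative of Frzb, rose by 0.78 (adjusted p = 1.09e-09), the feedback inhibitors Notum by 0.62 (adjusted p = 0.0032) and Axin2 by 0.19 (adjusted p = 0.00058), while Nkd1 had -0.26 (adjusted p = 0.000982). Of 7 genes of adrenomedullin signalling, 3 rose and 1 fell (2 and 1 without the 2 libraries high in meningeal markers): its receptor subunit Ramp2 rose by 0.23 (adjusted p = 0.00856), the amidating enzyme Pam by 0.07 (adjusted p = 0.00998) and the scavenging receptor Ackr3 by 0.17 (adjusted p = 0.0353), and Ramp1 had -0.10 (adjusted p = 0.0158).

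Of 9 other intermediate filament genes, 1 rose and 3 fell, with Lmna, of the nuclear lamina, at 0.23 (adjusted p = 4.95e-06) and the neuronal filament Nefl at -0.11 (adjusted p = 0.00224). Of 12 retina and LIM homeobox genes, 1 rose, Lhx1 by 0.23 (adjusted p = 0.00231), and 2 fell, Lmo3 and Ldb2. Of 11 neural progenitor genes, 1 rose, Sox9 by 0.18 (adjusted p = 0.0112), and 2 fell, Hes1 at -0.30 (adjusted p = 0.00231) and Fabp7, the lipid-binding protein of radial glia and astrocytes, at -1.60 (adjusted p = 1.36e-14). Adm is a gene induced by low oxygen, and of 12 other such genes 4 rose and 1 fell (5 and 1 without the 2 libraries high in meningeal markers). Slc2a1 rose by 0.29 (adjusted p = 1.31e-07), Hif3a by 1.53 (adjusted p = 2.84e-06) and Ankrd37 by 0.39 (adjusted p = 0.00177), and Pdk1 had -0.16 (adjusted p = 2.21e-05). The remaining one of the 4 was Ddit4, an inhibitor of mTOR signalling, given by group because it was also called between the genotypes. Ddit4 was at 19.6 ± 0.923 CPM in WT ZT1, 18.9 ± 0.403 in ASIC1a-/- ZT1, 20.4 ± 1.00 in WT ZT13 and 26.8 ± 0.373 in ASIC1a-/- ZT13 (SD, n = 4). Its log2 fold change for time was 0.51 in ASIC1a-/- (adjusted p = 4.19e-07 in edgeR's test) and 0.06 in WT (adjusted p = 0.414), the interaction was 0.45 (adjusted p = 0.00176) and the difference between genotypes at ZT13 was 0.39 (adjusted p = 4.75e-05), the latter 2 called in all 26 and 27 alternatives. Of 12 ependymal genes 0 rose and 1 fell, Rsph1 at -0.14 (adjusted p = 0.0271; 0 were called without the 2 libraries high in meningeal markers), and of 12 astrocyte genes 1 rose, Fgfr3 by 0.26 (adjusted p = 8.8e-08), and 1 fell, Gja1 at -0.16 (adjusted p = 0.000653), with 2 and 1 when the 2 libraries were left out. Of 10 endothelial genes 2 rose and 4 fell (3 and 5 without the 2 libraries), and of 9 mural genes 0 rose and 5 fell (0 and 6). Of 10 meningeal genes 0 were called by edgeR, DESeq2 or limma-voom. Of these, 1 had an unadjusted p under 0.05, beside 5993 of all 15808 tested genes. Without the 2 libraries high in meningeal markers 6 of the 10 were called by edgeR, 1 of them higher and 5 lower. Of 6 tested pituitary genes 2 rose, Cga by 3.09 (adjusted p = 0.0272) and Chga by 0.12 (adjusted p = 0.0448). Without the 2 libraries high in meningeal markers 1 was called, and limma-voom called 0. In WT alone 4 of the 6 were called, beside 13.3% of all tested genes. Among them, Gh was at 1.02 CPM at ZT1 and 12.9 CPM at ZT13 (adjusted p = 0.00295). In ASIC1a-/- 0 were called, beside 11.3%. The share of pituitary tissue per group was not tested. For comparison, of 16 core clock genes 12 rose and 1 fell (10 and 1 without the 2 libraries).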

How the data were processed

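Hypothalamic RNA was sequenced in 16 libraries, 1 per mouse. According to the study's methods and the submitters' processing notes, reads were trimmed with cutadapt 1.8, aligned with STAR 2.5.3a to a GRCm38 transcriptome (the notes also name mm9) and quantified with RSEM 1.2.31. The deposited tables hold the authors' RSEM expected counts and TPM per Ensembl gene, with the length in bases that RSEM gives for the gene. The labels and the methods name different extraction and library kits, and strand handling is not given in the sources used here. The members and gene lists were chosen with earlier results of these data known.

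Expected counts were rounded (4.851% of values were not whole). Genes above 1 CPM in at least 1 library (15808) were fitted with edgeR 4.0.16 (R 4.3.3, TMM normalisation, quasi-likelihood F test, 1 mean per group), and p-values were adjusted by Benjamini-Hochberg within each comparison. The residual degrees of freedom were 12 and the biological coefficient of variation was 6.06%. Standard errors are the log2 fold change over the root of F, and 95% intervals use the moderated degrees of freedom. CPM are TMM-normalised, and log2 CPM for the relations used a prior count of 2. Relations were tested with 100000 permutations within groups. Genes were named by rule: all 7 members, up to 3 genes of each list by smallest p together with any that passed, up to 6 for the other tanycyte genes, and the 3 nearest in pattern. In the text, lists with many calls are given by counts. DESeq2 1.42.0, limma-voom (limma 3.58.1), other filters, size factors of DESeq2, a block for replicate number, no centring, log2(TPM + 1), log2(TPM + 0.1) and leaving out libraries were the alternatives. Fits were tested on simulated data. Nothing says whether animals shared a litter or cage, and counting errors cover counting only. Symbols and positions came from GENCODE M21 (GRCm38).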

Additional observations from a re-analysis of the deposited data

Results flagged for a closer look

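Rax in WT ZT1 replicate 2 stood apart from its group, at 0.618 CPM (22 counts) against 1.23 to 1.37 CPM in the other 3 libraries. On the log2 scale, the gap to the nearest library was 0.864 of the range of the group. This was above the 95% critical value of Dixon's test for 4 values. It was the only such value on the log2 scale among 28 sets of 4 libraries (7 genes in 4 groups). Chance gives about 1 in 20. Taken on the CPM values above, the gap stayed below the critical value, so this flag depended on the scale. In the same library, of the other tested genes Frzb lay farthest from its group mean, by 0.08 on the log2 scale. Without this library Rax was still called for time of day with the genotypes averaged.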

How the results depend on the processing

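Rax was called for time of day, with the genotypes averaged, in 26 of 26 alternatives (log2 fold change 0.48 to 0.82, adjusted p 0.00046 to 0.0213). Gpr50 was called in 16 of 26. Its call was lost on both TPM scales, with a block for replicate number (-0.162, adjusted p = 0.0572) and without WT ZT1 replicate 2 or 3, ASIC1a-/- ZT1 replicate 3 or 4, WT ZT13 replicate 3, or ASIC1a-/- ZT13 replicate 1 or 4, so the count of 2 called genes became 1 in those fits (range 1 to 2 leaving out single libraries). Same-numbered libraries did not deviate together (correlations -0.316 to 0.217 over 24 pairs, median 0.009, against a median of 0.0165 for other pairs). With 4 libraries per group a weak shared effect could be missed, so whether the numbers pair the mice was not settled. For time in WT, 0 genes became 1 with no filter, DESeq2, limma-voom or only the 8 libraries compared, and in ASIC1a-/- with DESeq2, limma-voom or without the 2 libraries lowest in Rax, a choice made after seeing the data (0 to 1 leaving out single libraries in each). The called gene was always Rax in WT, while in ASIC1a-/- it was Rax in 4 alternatives and Gpr50 in 2. The relation between Gpr50 and Nes, 1 of 15, became 0 with log2(TPM + 1) or without the 2 libraries lowest in Rax, 4 relations passed without centring, and 0 to 1 leaving out single libraries. Relations to marker lists, 0 of 48, became 1 with log2(TPM + 1) and 0 to 4 leaving out single libraries. Signs changed only for differences that were not called. Without the 2 libraries high in meningeal markers, ASIC1a-/- minus WT was -0.058 for Nes at ZT1, -0.008 for Rax, -0.035 for Gpr50 and -0.026 for Vim at ZT13, and -0.008 for Gpr50 and -0.067 for Nes over both times. With log2(TPM + 1) and log2(TPM + 0.1), Lhx2 was 0.082 and 0.095 between genotypes at ZT1 and 0.018 on both for time in WT, Vim was -0.036 on both in WT and 0.015 and 0.016 in ASIC1a-/-, and the interactions were 0.018 and 0.025 for Rax, 0.054 and 0.057 for Gpr50 and 0.051 and 0.052 for Vim. The interaction of Rax was 0.002 with the replicate block, and Frzb for time in ASIC1a-/- was -0.003 without the 2 libraries lowest in Rax. Leaving out single libraries, ASIC1a-/- minus WT ranged at ZT1 from -0.050 to 0.355 for Rax and -0.057 to 0.169 for Nes, at ZT13 from -0.010 to 0.217 for Rax, -0.036 to 0.066 for Gpr50, -0.028 to 0.186 for Vim and -0.076 to 0.038 for Nes, and over both times from -0.035 to 0.078 for Nes. Time ranged in WT from -0.021 to 0.053 for Vim and -0.085 to 0.022 for Nes, in ASIC1a-/- from -0.230 to 0.045 for Vim and -0.002 to 0.10 for Frzb, and averaged from -0.109 to 0.028 for Vim. The interaction ranged from -0.223 to 0.182 for Rax, -0.112 to 0.006 for Gpr50, -0.243 to 0.033 for Vim and -0.182 to 0.044 for Nes. The causes were not tested. Rax and Adm rest on under 100 counts per library, which limits both.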
